A study of Mus musculus with 12 samples.

Results

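Loss of Setd2 was compared between kidney cells with and without a MYC construct, as a difference of differences over 12 RNA-seq libraries. For each gene, the log2 ratio of MYC-OE SETD2-KO to MYC-OE was set against the log2 ratio of SETD2-KO to WT, and the first minus the second is called the interaction here. A value of 0 means that Setd2 loss multiplied the gene's level by the same factor in both backgrounds, and a positive value means that the factor was larger with the MYC construct. All 44792 genes of the count table belong to this comparison, and 17019 had enough reads to be tested. The cells were primary tubular epithelial cells from the kidney cortex of C57BL/6 mice, with 3 libraries a group and, per the design text, 3 mice of each genotype. MYC-OE SETD2-KO mice carried Ksp1.3/cre, MYCfl/fl and Setd2fl/fl. MYC-OE mice carried Ksp1.3/cre and MYCfl/fl. SETD2-KO mice carried Ksp1.3/cre and Setd2fl/fl, and WT mice carried Setd2fl/fl without Cre. MYC-OE was therefore the 1 group without the floxed Setd2 allele, and WT the 1 group without Cre. SETD2-KO differs from WT in Cre, whereas MYC-OE SETD2-KO differs from MYC-OE in the floxed allele itself. An effect of the floxed allele or of the chromosome segment around it, or of Cre, cannot be told apart from the interaction in this design. The Ksp-cadherin promoter that drives Cre is active in tubular epithelium, and whether it targeted other cell types in the preparation was not tested. The labels do not give the animals' ages.

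Setd2 encodes the enzyme that trimethylates lysine 36 of histone H3 over the bodies of transcribed genes, a mark that is tied to splicing, to DNA repair and to the suppression of transcription starts within genes. It is among the genes that are recurrently mutated in clear cell renal carcinoma. MYC is a transcription factor that binds E-boxes and drives ribosome production, metabolism and cell division, and it is often overactive in kidney tumours. An interaction shows where the joint genotype departs from the product of its separate effects.

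The targeted gene was measured first. Setd2 stood at 62.1, 51.1 and 80.6 CPM (read counts scaled to a common TMM-adjusted library total) in MYC-OE SETD2-KO, at 62.1, 62.1 and 56.8 CPM in MYC-OE, at 58.9, 79.0 and 63.4 CPM in SETD2-KO and at 70.9, 79.8 and 86.4 CPM in WT. Both knockout groups overlapped their controls, so the whole-gene count did not separate the genotypes. The labels do not name the deleted exons, and a whole-gene count does not isolate them. The Myc interaction was 1.30 ± 0.58 (log2 ± SE with the set term explained below; adjusted p = 0.42), with 6.49, 2.27 and 14.0 CPM in MYC-OE SETD2-KO, 3.22, 4.89 and 4.04 CPM in MYC-OE, 2.85, 2.73 and 3.99 CPM in SETD2-KO and 3.44, 3.11 and 3.16 CPM in WT. The labels do not say whether transcripts of the construct are counted under Myc.

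The libraries fell into 3 sets that cross the genotypes, by their mitochondrial ribosomal RNA. Set 1 (15020 to 19620 CPM) held the 3 WT libraries with SETD2-KO 1 and 2. Set 2 (975 to 2909 CPM) held MYC-OE SETD2-KO 1 and 2 with MYC-OE 1. Set 3 (0.509 to 1.26 CPM) held MYC-OE SETD2-KO 3, MYC-OE 2 and 3 and SETD2-KO 3. Every result was therefore fitted by group alone and again with a term for the set. With that term the interaction compares MYC-OE SETD2-KO with MYC-OE inside sets 2 and 3, and SETD2-KO with WT inside set 1, and SETD2-KO 3 does not contribute to it. A value given for set 2 or set 3 is the difference of MYC-OE SETD2-KO from MYC-OE inside that set, less the difference of SETD2-KO 1 and 2 from WT in set 1, since neither set 2 nor set 3 holds a WT library. Interactions of single genes are given from the fit with the set term, as log2 values with their SE, unless the fit by group is named. Xist without Y-chromosome transcripts, the pattern of a female, was found in MYC-OE SETD2-KO 1 and 3 and in SETD2-KO 3, and the other 9 libraries had Y transcripts. Total counts ran from 8889185 to 14314434 in MYC-OE SETD2-KO, from 15712963 to 17132375 in MYC-OE, from 16657538 to 41608501 in SETD2-KO and from 22997852 to 44227191 in WT. The tubular label held in most libraries, where the transporter gene Slc34a1 of the proximal tubule had a median of 6312 CPM. Over the 53 proximal tubule genes the median level was 4.79 log2 CPM in MYC-OE SETD2-KO 3 and 6.92 and 6.63 in MYC-OE 2 and 3, against 8.27 to 9.26 in the other 9 libraries, so that 3 of the 4 libraries of set 3 stood apart. MYC-OE SETD2-KO 3 had 16.6 CPM of Slc34a1 and 127 CPM of the endocytic receptor gene Lrp2, while it kept 2514 CPM of Umod, the uromodulin gene of the thick ascending limb.

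Few single genes had an interaction that passed edgeR's quasi-likelihood test. In the fit by group 1 gene, Ifi44l, had a positive interaction at an adjusted p under 0.05 (0.00588% of the genes tested) and 1 gene, Rpl29, a negative one (0.00588%). With the set term 6 genes were positive (0.0353%) and 12 were negative (0.0705%), and both genes called by group were among these 18. At an unadjusted p under 0.05 the fit by group held 496 positive genes (2.91%) and 1243 negative genes (7.3%), and the fit with the set term 998 (5.86%) and 1028 (6.04%). Over the 12198 genes that averaged 1 log2 CPM or more, the median SE of an interaction was 0.5 by group and 0.35 with the set term. The median interaction over all genes tested was 0.05 by group and -0.02 with the set term.

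The count of calls rested on single libraries. With the set term it was 0 positive and 2 negative without WT 1, 0 and 1 without WT 2, 2 and 3 without WT 3, 0 and 2 without SETD2-KO 1, and 2 and 18 without SETD2-KO 2. It was 1740 and 2370 without MYC-OE 1, 3 and 13 without MYC-OE 2, 0 and 3 without MYC-OE 3, 2 and 9 without MYC-OE SETD2-KO 1, 14 and 31 without MYC-OE SETD2-KO 2, and 163 and 146 without MYC-OE SETD2-KO 3. Leaving out SETD2-KO 3 gave 6 and 12. Without MYC-OE 1 the comparison rests on MYC-OE SETD2-KO 3 against MYC-OE 2 and 3, the pair with the smallest count differences inside a group. Without MYC-OE SETD2-KO 3 it rests on MYC-OE SETD2-KO 1 and 2 against MYC-OE 1. Values with the set term that leave out either library therefore restate set 3 or set 2 and are no further check. Without the 3 libraries with Xist there were 95 positive and 164 negative calls, and 16 of the 18 genes were among them. With a term for Xist without Y added to the set term, 0 positive calls and 1 negative call were left, and Rpl29 was the 1 of the 18 genes that still passed. A term for the replicate number beside the set term gave the same counts and also kept Rpl29 alone. Without set 3 there were 69 and 97, with 17 of the 18 among them. DESeq2 called 180 and 225 genes with the set term, all 18 included, and 52 and 216 by group. With the set term Rpl29 passed in 21 of 21 alternatives with a test, and the other 17 genes passed in 10 to 17 of their 21 or 22. By group Rpl29 passed in 18 of 22 and Ifi44l in 10 of 22.

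The parts of the interaction gave unlike counts of calls. With the set term, MYC-OE SETD2-KO against MYC-OE gave 482 higher genes (2.83%) and 456 lower genes (2.68%) at an adjusted p under 0.05. SETD2-KO against WT gave 0 (0%) in edgeR's quasi-likelihood test, with 100 genes (0.588%) at an unadjusted p under 0.05. That share is lower than a threshold of 0.05 would pass with no effect at all, so the test was strict for this comparison. All groups shared a common estimate of the spread in the fit. The 0 calls therefore do not show that Setd2 loss alone had no effect, and the counts do not compare effect sizes. In the 12 genes with a negative call, every MYC-OE SETD2-KO library lay below every MYC-OE library, and MYC-OE was the highest group in 11 (Cyp51 was the exception). In the 6 genes with a positive call MYC-OE was the lowest group, and all MYC-OE SETD2-KO libraries lay above all MYC-OE libraries in 5 (Pnn was the exception). Over all genes tested, 998 (5.86%) lay entirely above and 1134 (6.66%) entirely below.

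**Figure D1:**
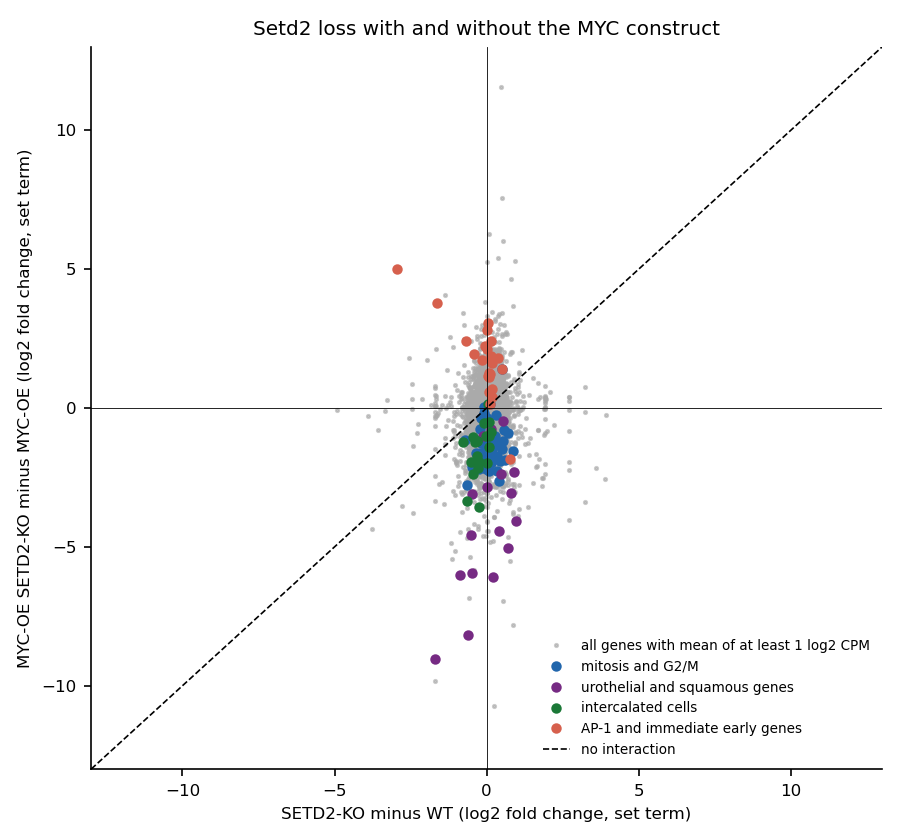
Each point is a gene, with the log2 fold change of SETD2-KO minus WT on the x axis and that of MYC-OE SETD2-KO minus MYC-OE on the y axis, both with the set term. The dashed line marks an interaction of 0, and genes of 4 lists are coloured: the AP-1 and immediate early genes lie mostly above it and the other 3 lists mostly below it, with list medians of 1.53, -1.63, -4.08 and -1.03 for immediate early, mitosis, urothelial and intercalated cell genes.

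Among the called genes the largest departure was that of Rpl29, which encodes a protein of the large ribosomal subunit. It had 0.881, 0.757 and 2.03 CPM in MYC-OE SETD2-KO, 170, 163 and 179 CPM in MYC-OE, 0.317, 0.349 and 1.15 CPM in SETD2-KO and 0.196, 0.218 and 0.256 CPM in WT. The MYC-OE libraries were nearly alike, and every other library had at most 2.03 CPM. The interaction was -7.48 ± 0.52 with the set term (adjusted p = 0.000956) and -8.40 ± 0.76 by group (adjusted p = 0.0079). Of 78 cytosolic ribosomal protein genes tested Rpl29 was the 1 gene called, and the list's median was 0.20 with the set term and -1.20 by group. Rpl29 lies on chromosome 9 from 106429432 to 106431573 in the deposited coordinates, 4.1 Mb from Setd2, at 110532597 to 110618633. MYC-OE is the group without the floxed Setd2 allele, so a difference carried with that segment cannot be told apart from an interaction at Rpl29. Reads of Rpl29 can also match its pseudogenes. The 5 pseudogene symbols of the table together held 3 to 31 counts per library in MYC-OE SETD2-KO, 31 to 34 in MYC-OE, 35 to 38 in SETD2-KO and 27 to 55 in WT, against 3218 to 4559 counts of Rpl29 itself in MYC-OE.

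Other genes near Setd2 were counted in windows chosen after the values were seen. Within 5 Mb, where Rpl29 was the 1 gene called, 22 of 149 tested genes (14.8%) had a negative interaction at an unadjusted p under 0.05 and 8 (5.37%) a positive one, against 6.04% and 5.86% of all genes tested. Within 10 Mb these were 27 (12.6%) and 12 (5.61%) of 214. Just outside, 10.9 Mb from Setd2, A4gnt, a glycosyltransferase gene of mucin sugar chains, had 1.65, 1.26 and 0.824 CPM in MYC-OE SETD2-KO, 14.1, 12.4 and 10.6 CPM in MYC-OE, 2.75, 2.76 and 9.94 CPM in SETD2-KO and 3.40, 2.51 and 2.91 CPM in WT. Its interaction was -3.42 ± 0.39 (adjusted p = 0.0145).

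**Figure D2:**
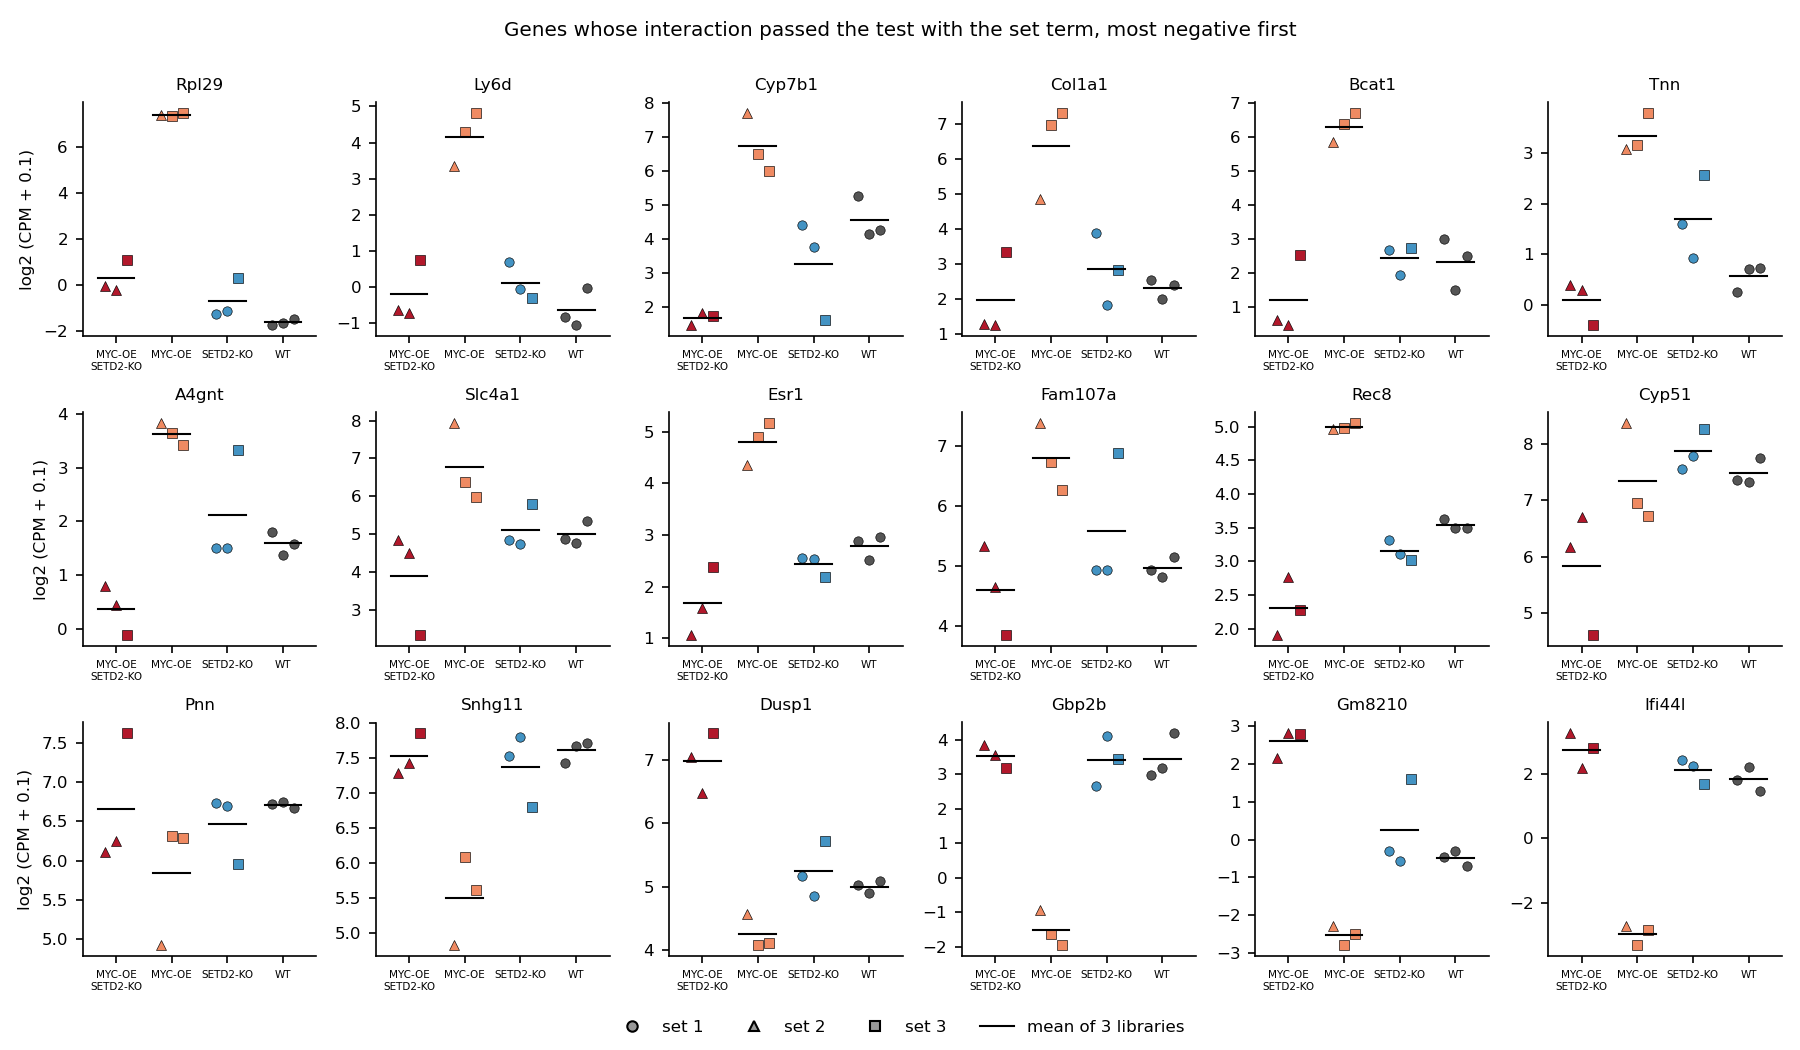
The 18 genes whose interaction passed with the set term, as log2 of CPM plus 0.1 in every library, with groups from left to right MYC-OE SETD2-KO, MYC-OE, SETD2-KO and WT and symbols by set. MYC-OE is the highest group in 11 of the 12 genes with a negative value and the lowest in all 6 with a positive value.

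Gene lists are described below by their counts, to be read against the shares of all genes tested. At an unadjusted p under 0.05 these were 6.04% negative and 5.86% positive with the set term, and 7.3% and 2.91% by group. For MYC-OE SETD2-KO against MYC-OE they were 2.68% called lower and 2.83% higher, with 6.66% entirely below and 5.86% entirely above. Genes of squamous and urothelial epithelium had the lowest median of the lists. Ly6d, a surface protein of squamous and urothelial cells, had 0.55, 0.505 and 1.59 CPM in MYC-OE SETD2-KO, 10.1, 19.7 and 28.1 CPM in MYC-OE, 1.51, 0.871 and 0.71 CPM in SETD2-KO and 0.469, 0.382 and 0.883 CPM in WT. The MYC-OE libraries stood clear of all others. The interaction was -5.03 ± 0.57 (adjusted p = 0.0145). Of the 17 tested genes of the urothelial and squamous list, 1 (Ly6d) was called and 11 had negative values at an unadjusted p under 0.05, with none positive. Upk3a, a uroplakin of the urothelial plaque, had 0, 0.252 and 0.275 CPM in MYC-OE SETD2-KO, 12, 5.99 and 23.7 CPM in MYC-OE, 1.66, 0.697 and 1.20 CPM in SETD2-KO and 0.587, 0.491 and 1.82 CPM in WT (interaction -6.29 ± 1.20, adjusted p = 0.11). The uroplakin genes Upk2 and Upk1b had -5.76 ± 1.23 and -4.85 ± 1.10 (adjusted p = 0.137 and 0.146).

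The median of this list was -4.08 with the set term and -5.21 by group, with -5.01 inside set 2 and -2.69 inside set 3. It was -0.98 when only genes with 10 counts in every library were kept. The comparison of MYC-OE SETD2-KO with MYC-OE called 10 of the 17 lower and none higher, and 11 of the 17 lay entirely below. These are markers of the renal pelvis and not of tubules, at a median level per library of -3.45 to -0.22 log2 CPM in MYC-OE SETD2-KO, 2.47 to 4.42 in MYC-OE, -0.34 to 0.68 in SETD2-KO and -0.92 to -0.04 in WT. In bulk RNA, fewer cells of a type and less RNA per cell cannot be told apart, here and for the other cell type lists.

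Matrix genes formed the next group. Col1a1, a chain of type I collagen, had 2.31, 2.27 and 10.1 CPM in MYC-OE SETD2-KO, 29.0, 125 and 159 CPM in MYC-OE, 14.6, 3.46 and 6.99 CPM in SETD2-KO and 5.67, 3.88 and 5.18 CPM in WT. The interaction was -4.61 ± 0.65 (adjusted p = 0.0346). Tnn, a tenascin of stromal matrix, had 1.21, 1.14 and 0.659 CPM in MYC-OE SETD2-KO, 8.34, 8.77 and 13.7 CPM in MYC-OE, 2.92, 1.80 and 5.84 CPM in SETD2-KO and 1.09, 1.53 and 1.57 CPM in WT (-4.18 ± 0.57, adjusted p = 0.0308). In both genes the MYC-OE libraries lay above all others. Of 39 extracellular matrix genes tested, 1 (Col1a1) was called, 18 were negative and 2 positive at an unadjusted p under 0.05, and the median was -0.78 with the set term and -1.46 by group. The fibrillar collagen genes Col3a1 and Col1a2 had -4.08 ± 0.83 and -2.22 ± 0.46 (adjusted p = 0.125 and 0.126), and Vcan, a large matrix proteoglycan, had -3.96 ± 0.83 (adjusted p = 0.13).

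Of 20 fibroblast and mural cell markers, 1 (Col1a1, held by both lists) was called and 10 were negative at an unadjusted p under 0.05, with a median of -0.96. Acta2, smooth muscle actin, had 15.4, 18.8 and 14.1 CPM in MYC-OE SETD2-KO, 27.4, 38.6 and 55.2 CPM in MYC-OE, 32.7, 24.2 and 36.8 CPM in SETD2-KO and 19.3, 19.4 and 22.3 CPM in WT (-1.70 ± 0.38, adjusted p = 0.144). Pdgfrb, a receptor that marks fibroblasts and pericytes, had an interaction of -0.13 ± 0.38 (adjusted p = 0.923), with 32.6 to 50.8 CPM in MYC-OE SETD2-KO, 33.5 to 53.3 CPM in MYC-OE, 27.9 to 33.9 CPM in SETD2-KO and 19.1 to 35.1 CPM in WT. The matrix median was -1.25 without MYC-OE 1, and -0.82 in set 2 and -1.24 in set 3.

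Among transport and metabolic genes, Slc4a1, the chloride-bicarbonate exchanger of intercalated cells and red cells, had 28.8, 22.7 and 4.94 CPM in MYC-OE SETD2-KO, 244, 83.7 and 63.3 CPM in MYC-OE, 28.6, 26.5 and 55.4 CPM in SETD2-KO and 29.3, 27.4 and 40.7 CPM in WT. The interaction was -3.31 ± 0.33 (adjusted p = 0.0119). Of 20 intercalated cell genes 1 (Slc4a1) was called and 10 were negative at an unadjusted p under 0.05, with none positive. The median was -1.03 with the set term and -1.01 by group, and -1.36 and -1.31 inside sets 2 and 3. MYC-OE SETD2-KO against MYC-OE called 12 of the 20 lower. Aqp6, a water channel of intercalated cells, had 17.6, 15.9 and 20.8 CPM in MYC-OE SETD2-KO, 67.0, 105 and 101 CPM in MYC-OE, 13.2, 13.6 and 58.1 CPM in SETD2-KO and 16.4, 11.2 and 20.5 CPM in WT (-1.89 ± 0.31, adjusted p = 0.0771). SETD2-KO 3 was high beside the others of its group. Atp6v1b1, a subunit of the proton pump, had -1.48 ± 0.30 (adjusted p = 0.126), and the ammonia transporter gene Rhbg had -2.0 ± 0.45 (adjusted p = 0.146).

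Other nephron segments had smaller medians. The thick ascending limb list had 7 negative values of 19 at an unadjusted p under 0.05, none called, and a median of -0.86 (-0.56 without MYC-OE SETD2-KO 3). Its sodium-potassium-chloride cotransporter gene Slc12a1 had 349, 190 and 332 CPM in MYC-OE SETD2-KO, 681, 1294 and 784 CPM in MYC-OE, 335, 341 and 1877 CPM in SETD2-KO and 462, 366 and 443 CPM in WT (-1.17 ± 0.40, adjusted p = 0.312). Cldn19, a tight junction claudin, had -2.27 ± 0.61 (adjusted p = 0.219). The proximal tubule list changed direction with the fit. Its median over 53 genes was -0.67 with the set term, where 9 were negative at an unadjusted p under 0.05, and 0.98 by group. Inside set 2 it was 0.01 and inside set 3 it was -1.27, and it was 0.12 without MYC-OE SETD2-KO 3 and -1.38 without MYC-OE 1. No direction is given for this list.

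Cyp7b1, an oxysterol hydroxylase and the 1 proximal tubule gene called, had 2.64, 3.41 and 3.19 CPM in MYC-OE SETD2-KO, 210, 90.8 and 64.1 CPM in MYC-OE, 21.2, 13.6 and 2.95 CPM in SETD2-KO and 38.2, 17.5 and 19.2 CPM in WT. The interaction was -4.83 ± 0.59 (adjusted p = 0.023). Cyp7b1 is also on the list of kidney genes with a known sex difference. In MYC-OE SETD2-KO the library with Y transcripts had 3.41 CPM, and the 2 with Xist 2.64 and 3.19 CPM. In SETD2-KO the library with Xist had 2.95 CPM, below the 21.2 and 13.6 CPM of those with Y transcripts. Without the 3 Xist libraries the interaction was -5.43 (adjusted p = 0.0136), and with a term for Xist beside the set term it was -5.10 and missed the threshold (adjusted p = 0.245).

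Cyp51, the lanosterol demethylase of cholesterol synthesis, had 72.4, 104 and 24.4 CPM in MYC-OE SETD2-KO, 329, 124 and 105 CPM in MYC-OE, 188, 220 and 304 CPM in SETD2-KO and 164, 160 and 214 CPM in WT. It was the negative call with the smallest value, -2.25 ± 0.29 (adjusted p = 0.0266), and MYC-OE SETD2-KO was its lowest group. Of 23 cholesterol synthesis genes tested 1 (Cyp51) was called and 6 were negative at an unadjusted p under 0.05, with a median of -0.54, and -0.10 by group. Sqle, squalene epoxidase, had 45.3, 50.1 and 31.4 CPM in MYC-OE SETD2-KO, 78.0, 66.1 and 55.7 CPM in MYC-OE, 90.8, 84.8 and 71.4 CPM in SETD2-KO and 65.0, 81.8 and 75.1 CPM in WT (-1.08 ± 0.22, adjusted p = 0.122). Mvd and Dhcr7, which encode an early and the last enzyme of the pathway, had -0.90 ± 0.19 and -1.34 ± 0.33 (adjusted p = 0.128 and 0.185). The median was -0.86 without MYC-OE 1.

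The remaining negative calls belong to no list described here. Bcat1, the cytosolic branched-chain aminotransferase, had 1.43, 1.26 and 5.66 CPM in MYC-OE SETD2-KO, 57.6, 82.8 and 104 CPM in MYC-OE, 6.24, 3.69 and 6.5 CPM in SETD2-KO and 7.78, 2.73 and 5.47 CPM in WT (-4.51 ± 0.60, adjusted p = 0.0266). Rec8, a meiotic cohesin subunit, had 3.63, 6.69 and 4.72 CPM in MYC-OE SETD2-KO, 31.0, 31.6 and 33.1 CPM in MYC-OE, 9.90, 8.51 and 8.03 CPM in SETD2-KO and 12.3, 11.1 and 11.2 CPM in WT (-2.36 ± 0.33, adjusted p = 0.0308). In Rec8 the spread within each group was small beside the gap between MYC-OE and the rest. Esr1 (estrogen receptor alpha) and Fam107a, an actin-associated stress protein, were named after their values were seen. Esr1 had 1.98, 2.90 and 5.11 CPM in MYC-OE SETD2-KO, 20.3, 29.6 and 35.8 CPM in MYC-OE, 5.78, 5.72 and 4.48 CPM in SETD2-KO and 7.27, 5.62 and 7.66 CPM in WT (-2.60 ± 0.33, adjusted p = 0.0244). Fam107a had 40.1, 25.1 and 14.3 CPM in MYC-OE SETD2-KO, 166, 106 and 76.8 CPM in MYC-OE, 30.6, 30.6 and 118 CPM in SETD2-KO and 30.5, 28.2 and 35.6 CPM in WT (-2.47 ± 0.31, adjusted p = 0.0244). SETD2-KO 3 was high in Fam107a. The naming rule also took 2 negative genes that did not pass. Sptssb, a small subunit of serine palmitoyltransferase, had 0 counts in MYC-OE SETD2-KO, against 725 counts in MYC-OE, 62 in SETD2-KO and 65 in WT. Taking 3 counts over the group as the floor, it was at least 127-fold lower in MYC-OE SETD2-KO than in MYC-OE, and its interaction had an adjusted p of 0.108. Pdlim3, an actinin-binding LIM protein of muscle, had -3.01 ± 0.55 (adjusted p = 0.108).

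The 6 positive calls included a pair of interferon-induced genes that MYC-OE libraries nearly lacked. Ifi44l had 9.46, 4.42 and 6.87 CPM in MYC-OE SETD2-KO, 0.0528, 0 and 0.0393 CPM in MYC-OE, 5.32, 4.65 and 3.11 CPM in SETD2-KO and 3.40, 4.48 and 2.65 CPM in WT. The MYC-OE libraries held 2 counts together, so the pooled ratio of MYC-OE SETD2-KO to MYC-OE, 235, has an exact 95% counting interval of 64.2 to 1950. The interaction was 7.05 ± 0.80 (adjusted p = 0.0145) and by group 7.28 ± 0.82 (adjusted p = 0.0309). Gbp2b, a guanylate-binding GTPase, had 14.4, 11.6 and 9.06 CPM in MYC-OE SETD2-KO, 0.422, 0.22 and 0.157 CPM in MYC-OE, 6.24, 17.4 and 10.8 CPM in SETD2-KO and 7.78, 9.06 and 18.3 CPM in WT (5.25 ± 0.75, adjusted p = 0.0382). The 3 groups with the floxed Setd2 allele overlapped in Gbp2b, and MYC-OE stood apart. The list of interferon-induced genes holds neither Ifi44l nor Gbp2b, and its members did not share their direction. Of 34 tested 1 was positive and 2 negative at an unadjusted p under 0.05, and the median was -0.11.

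Snhg11, a long noncoding RNA that hosts small nucleolar RNAs, had 156, 173 and 232 CPM in MYC-OE SETD2-KO, 28.1, 67.5 and 48.8 CPM in MYC-OE, 185, 224 and 112 CPM in SETD2-KO and 173, 205 and 211 CPM in WT (2.21 ± 0.29, adjusted p = 0.0266). Pnn encodes pinin, a protein of nuclear speckles. It had 68.7, 76.0 and 198 CPM in MYC-OE SETD2-KO, 30.1, 79.3 and 78.1 CPM in MYC-OE, 106, 104 and 62.2 CPM in SETD2-KO and 106, 108 and 102 CPM in WT (1.30 ± 0.18, adjusted p = 0.0308). The groups overlapped in Pnn, and the call arose inside the sets, with 1.26 in set 2 and 1.33 in set 3. The gene model Gm8210, named after its values were seen, had 4.40, 6.94 and 6.87 CPM in MYC-OE SETD2-KO, 0.106, 0.0441 and 0.0785 CPM in MYC-OE, 0.705, 0.581 and 2.95 CPM in SETD2-KO and 0.626, 0.71 and 0.513 CPM in WT (6.20 ± 0.64, adjusted p = 0.0119).

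Several positive genes of the naming rule missed the threshold. Cyp26b1, a retinoic acid hydroxylase, had 67.8, 30.0 and 62.8 CPM in MYC-OE SETD2-KO, 1.64, 0.925 and 1.30 CPM in MYC-OE, 35.3, 7.90 and 12.5 CPM in SETD2-KO and 12.4, 9.66 and 27.6 CPM in WT (5.02 ± 0.95, adjusted p = 0.11). Adm, the vasodilator peptide adrenomedullin, had 14.3, 9.85 and 9.83 CPM in MYC-OE SETD2-KO, 3.90, 2.03 and 2.20 CPM in MYC-OE, 7.12, 5.90 and 6.66 CPM in SETD2-KO and 7.43, 5.51 and 6.84 CPM in WT (1.95 ± 0.39, adjusted p = 0.117). In both genes MYC-OE was the lowest group and MYC-OE SETD2-KO the highest. Acpp, an acid phosphatase, had 1.92 ± 0.38 (adjusted p = 0.12). Ccnl2, a cyclin of the splicing machinery, had 1.24 ± 0.19 (adjusted p = 0.0624), and the adhesion gene Ceacam1, which shares its position with another gene of the table, had 1.26 ± 0.20 (adjusted p = 0.0632). The mitochondrial transfer RNA gene TrnT had 3.73 ± 0.56 (adjusted p = 0.0531), and the sets were cut on ribosomal RNA of the same genome.

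With the set term the AP-1 and immediate early genes had the highest median of the lists, 1.53. By group their median was 1.22, below 2.37 for the mitochondrially encoded messenger RNAs and 2.06 for podocyte genes. These genes answer within minutes to growth factors and stress, through transcription factors of the Fos and Jun families and feedback inhibitors. Dusp1, a phosphatase that switches off MAP kinases, had 132, 89.8 and 173 CPM in MYC-OE SETD2-KO, 23.5, 16.7 and 17.1 CPM in MYC-OE, 35.9, 28.8 and 52.8 CPM in SETD2-KO and 32.3, 29.7 and 33.8 CPM in WT. All 3 MYC-OE SETD2-KO libraries lay above the other 9, and MYC-OE lay below all others. The interaction was 2.78 ± 0.37 (adjusted p = 0.0266), with 2.19 in set 2 and 3.34 in set 3.

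Of 24 immediate early genes tested 1 (Dusp1) was called and 15 were positive at an unadjusted p under 0.05, with none negative, and by group 7 were positive. MYC-OE SETD2-KO against MYC-OE called 14 of the 24 higher and none lower. Jun, an AP-1 subunit, had 128, 66.3 and 231 CPM in MYC-OE SETD2-KO, 34.7, 43.6 and 44.9 CPM in MYC-OE, 41.2, 45.2 and 27.5 CPM in SETD2-KO and 50.4, 78.6 and 43.6 CPM in WT (2.35 ± 0.46, adjusted p = 0.117). Zfp36, which destabilises AU-rich messenger RNAs, had 2.12 ± 0.48 (adjusted p = 0.146), and the transcription factor gene Klf2 had 1.63 ± 0.38 (adjusted p = 0.152). The AP-1 subunit gene Fosb had 29.2, 9.21 and 7.14 CPM in MYC-OE SETD2-KO, 0.106, 0.573 and 0.471 CPM in MYC-OE, 0.775, 0.581 and 0.218 CPM in SETD2-KO and 1.06, 14.6 and 0.256 CPM in WT. WT 2 was high in Fosb, and its interaction, 7.95 ± 2.16, had an adjusted p of 0.226.

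MYC-OE SETD2-KO 3 weighed on this list. The list's median level was 4.89, 4.20 and 5.70 log2 CPM in MYC-OE SETD2-KO, 3.40, 3.87 and 4.05 in MYC-OE, 3.51, 3.44 and 3.6 in SETD2-KO and 3.01, 3.68 and 3.46 in WT. The median interaction was 0.68 without MYC-OE SETD2-KO 3, 0.45 without the 3 libraries with Xist, 0.72 inside set 2 and 2.05 inside set 3. By group it was -0.07 without MYC-OE SETD2-KO 3.

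The promoters of 2 of these genes are shown for the cyclic AMP response element (CRE), a site of the CREB, ATF and AP-1 families. The 250 bases before a RefSeq start on GRCm38.p6 are given 5′ to 3′ on the gene's strand. Fosb is from chr7:19310046-19310295 and Dusp1 from chr17:26508473-26508722, both on the minus strand. The deposited Fosb gene reaches 19310232, so most of its window lies inside the counted gene. Capitals mark TGACG on either strand, including the full TGACGTCA in Dusp1, where the core is met on both strands.
Fosb: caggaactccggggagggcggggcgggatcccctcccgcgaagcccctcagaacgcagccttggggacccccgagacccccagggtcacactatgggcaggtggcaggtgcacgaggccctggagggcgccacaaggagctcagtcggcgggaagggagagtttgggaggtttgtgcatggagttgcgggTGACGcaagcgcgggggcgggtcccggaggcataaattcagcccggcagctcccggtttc
Dusp1: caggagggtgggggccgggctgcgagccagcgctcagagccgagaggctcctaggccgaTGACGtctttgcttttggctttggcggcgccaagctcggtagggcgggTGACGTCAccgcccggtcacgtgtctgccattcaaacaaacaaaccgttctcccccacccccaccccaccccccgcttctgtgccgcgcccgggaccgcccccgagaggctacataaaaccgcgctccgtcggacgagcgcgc
Motif shares here and below are shares of genes, and a gene counted if the window of any of its annotated starts held the letters. TGACG was met in 13 of the 21 immediate early genes with a promoter available (61.9%), against 28.7% of the 11197 tested genes with a promoter. The full TGACGTCA was met in 3 of the 21 genes (14.3%), against 2.85%. A match of letters is a description of these windows and not a binding site.

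Splicing factors had small positive values with the set term, alike in both sets. Of 32 tested none was called, 12 were positive and 1 negative at an unadjusted p under 0.05, and the median was 0.42 with the set term, with 0.41 inside set 2 and 0.43 inside set 3. By group none was positive and 1 was negative at an unadjusted p under 0.05. The by-group median was 0.17 and ran from -0.46 to 0.42 over 23 alternatives. The value of -0.46 arose when library totals replaced TMM, a scaling that moved the median of all genes to -0.56. Srsf11, a serine- and arginine-rich splicing factor, had 124, 122 and 240 CPM in MYC-OE SETD2-KO, 69.5, 132 and 114 CPM in MYC-OE, 190, 176 and 117 CPM in SETD2-KO and 187, 223 and 177 CPM in WT (0.99 ± 0.22, adjusted p = 0.138). Srsf5 and Srsf6, of the same family, had 0.96 ± 0.23 and 0.79 ± 0.21 (adjusted p = 0.162 and 0.219), and Sf3b1, a subunit of the U2 particle that binds the branch point, had 0.82 ± 0.21 (adjusted p = 0.203). MYC-OE SETD2-KO against MYC-OE called 6 of the 32 higher and none lower. TGACG was met in 19 of 30 splicing factor genes with a promoter available (63.3%), a share close to that of the immediate early genes. The full TGACGTCA was met in 1 of the 30 (3.33%), near the 2.85% of all tested genes with a promoter.

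**Figure D3:**
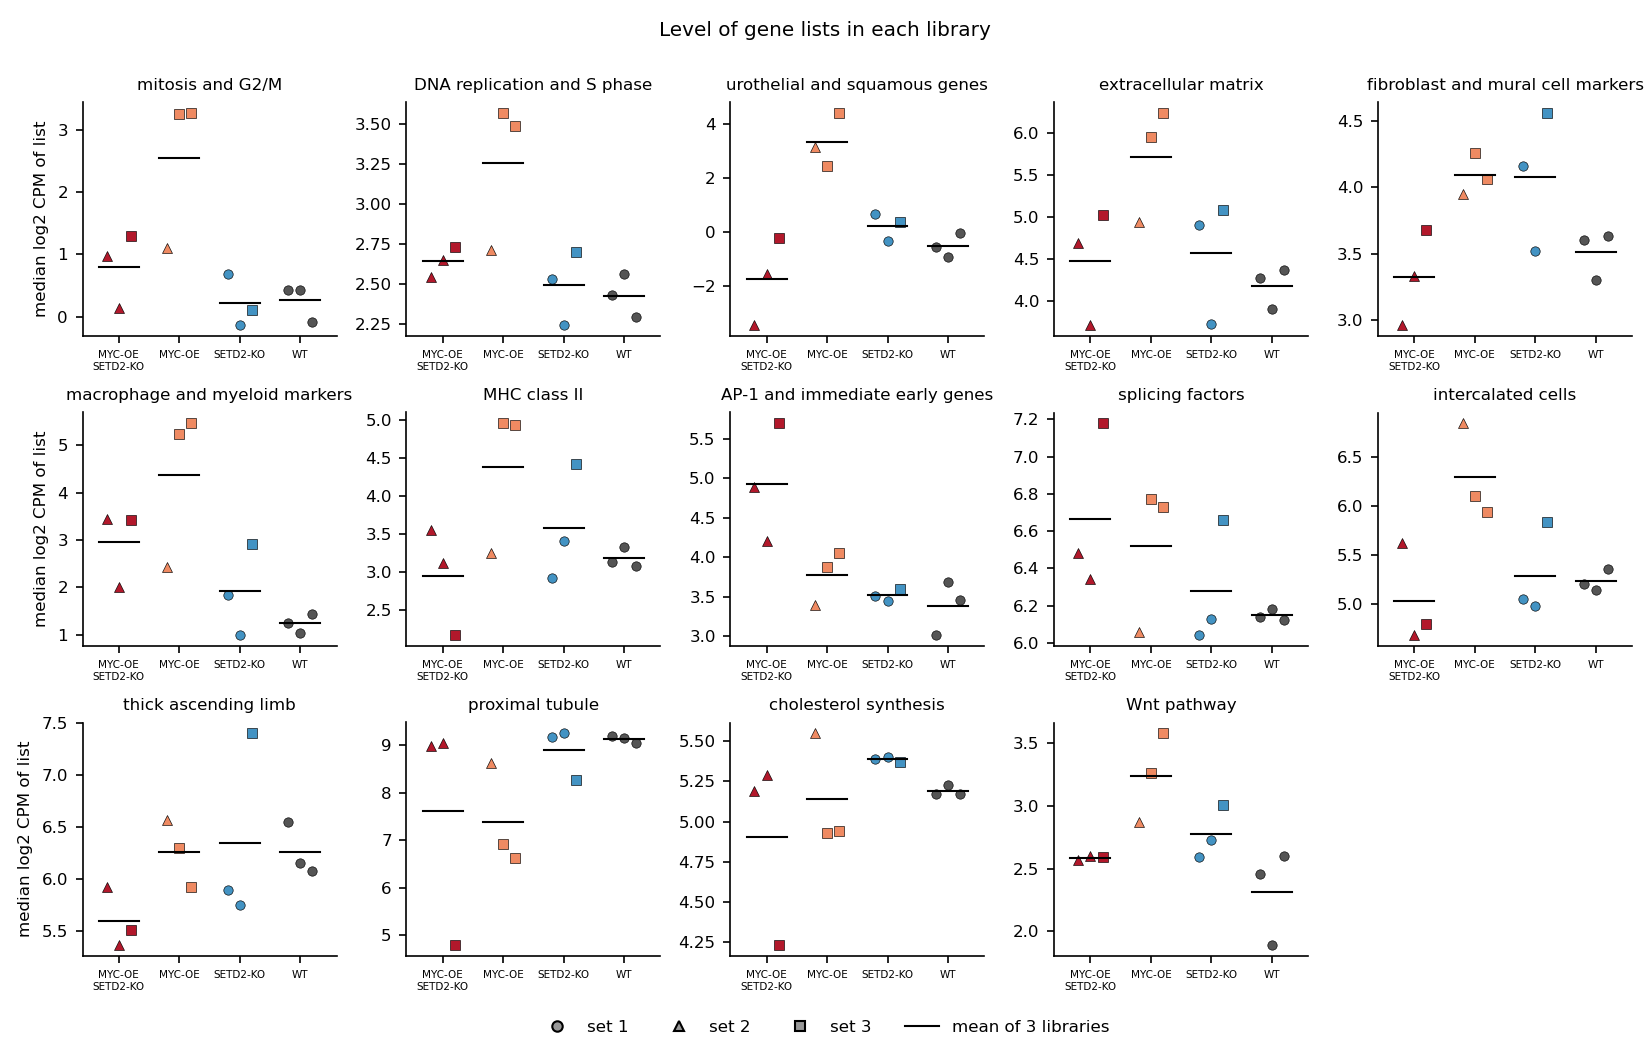
Median log2 CPM of the members of 14 gene lists in each of the 12 libraries, with groups from left to right MYC-OE SETD2-KO, MYC-OE, SETD2-KO and WT, symbols by set and bars at the mean of 3 libraries. MYC-OE SETD2-KO 3 is the lowest library for the proximal tubule list, at 4.79, and the highest for the immediate early list, at 5.70.

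Genes of mitosis lay mostly below 0, in 44 of the 47 tested with the set term and in 45 by group. In resting cells the DREAM complex binds the cell cycle homology region (CHR) of such genes and keeps them off. They are switched on before division by MuvB with B-MYB and FOXM1, together with NF-Y at CCAAT boxes. Mki67, the proliferation marker Ki-67, had 3.85, 2.65 and 9.01 CPM in MYC-OE SETD2-KO, 10.7, 54.2 and 58.1 CPM in MYC-OE, 6.31, 3.6 and 3.0 CPM in SETD2-KO and 3.56, 5.84 and 5.53 CPM in WT. The MYC-OE libraries lay above all others, with MYC-OE 1 closest to them. Its interaction was -2.20 ± 0.47 (adjusted p = 0.137), while the comparison of MYC-OE SETD2-KO with MYC-OE gave -2.20 (adjusted p = 0.0117).

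Of 47 mitosis genes tested none was called, 24 were negative and none positive at an unadjusted p under 0.05, and 22 lay entirely below MYC-OE in MYC-OE SETD2-KO. By group 29 were negative. The median was -1.63 with the set term and -2.07 by group, with -0.87 inside set 2 and -2.07 inside set 3, and -0.91 without MYC-OE SETD2-KO 3. MYC-OE SETD2-KO against MYC-OE called 9 lower. Ect2, an exchange factor of cytokinesis, had 2.20, 1.26 and 2.97 CPM in MYC-OE SETD2-KO, 6.70, 14.1 and 14.4 CPM in MYC-OE, 2.57, 2.35 and 6.83 CPM in SETD2-KO and 3.05, 3.99 and 3.33 CPM in WT (-1.63 ± 0.40, adjusted p = 0.18). Dlgap5, a spindle protein, and Cdca8, a subunit of the chromosomal passenger complex, had -2.35 ± 0.61 and -1.70 ± 0.52 (adjusted p = 0.215 and 0.265). The list's median level was 0.97, 0.14 and 1.29 log2 CPM in MYC-OE SETD2-KO, 1.10, 3.26 and 3.27 in MYC-OE, 0.68, -0.14 and 0.10 in SETD2-KO and 0.43, 0.43 and -0.08 in WT, so that MYC-OE 1 lay near the libraries of other groups.

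The promoters of Mki67 and Ect2 are shown for these elements, over the 250 bases before a RefSeq start on GRCm38.p6. They run 5′ to 3′ on the minus strand, from chr7:135716380-135716629 and chr3:27153855-27154104. The deposited genes reach 135716412 and 27153879, so the windows overlap them in part. Capitals mark the CHR letters TTTGAA and the letters CCAAT, each on either strand.
Mki67: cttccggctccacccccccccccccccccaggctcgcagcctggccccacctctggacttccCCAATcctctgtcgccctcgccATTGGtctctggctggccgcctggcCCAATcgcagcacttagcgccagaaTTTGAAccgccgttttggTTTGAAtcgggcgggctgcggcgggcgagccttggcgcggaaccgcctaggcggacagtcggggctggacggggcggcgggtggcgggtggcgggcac
Ect2: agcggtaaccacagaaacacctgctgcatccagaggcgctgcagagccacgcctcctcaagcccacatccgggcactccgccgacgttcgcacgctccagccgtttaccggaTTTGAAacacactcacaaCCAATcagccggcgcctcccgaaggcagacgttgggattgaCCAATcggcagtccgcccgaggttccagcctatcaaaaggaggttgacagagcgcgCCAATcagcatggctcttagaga
TTTGAA was met in 13 of 37 mitosis genes with a promoter available (35.1%), against 13.1% of all tested genes with a promoter. CCAAT was met in 28 of 37 (75.7%), against 40%. The E-box CACGTG was met in 3 of 37 (8.11%), against 9.55%.

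Genes of DNA replication went less far. Of 49 tested none was called, 5 were negative at an unadjusted p under 0.05, and the median was -0.33, with 0.01 inside set 2 and -0.64 inside set 3. It was 0.02 without MYC-OE SETD2-KO 3 and -0.65 without MYC-OE 1. Lig1, the ligase of Okazaki fragments, had 3.74, 4.67 and 4.83 CPM in MYC-OE SETD2-KO, 8.18, 14.8 and 16.7 CPM in MYC-OE, 5.67, 5.29 and 6.39 CPM in SETD2-KO and 5.28, 6.77 and 6.29 CPM in WT (-1.18 ± 0.36, adjusted p = 0.265). Ribosome production, a classic MYC programme, had a median of 0.28 with 2 of 49 genes positive at an unadjusted p under 0.05, and of -0.25 inside set 2 and 0.85 inside set 3.

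Wnt pathway genes had 9 negative values and 1 positive value of 36 at an unadjusted p under 0.05, none called, with a median of -0.41, and -0.65 and -0.41 inside sets 2 and 3. The members with the lowest p were 1 inhibitor and 3 ligands. Nkd2, which antagonises Dishevelled, had 0.44, 0.126 and 2.20 CPM in MYC-OE SETD2-KO, 2.22, 10.5 and 16.6 CPM in MYC-OE, 0.564, 0.407 and 0.218 CPM in SETD2-KO and 0.196, 0.164 and 0.399 CPM in WT (-3.57 ± 0.68, adjusted p = 0.11). Wnt9b, the ligand that patterns the collecting system in the embryo, had 0.33, 0.757 and 0.604 CPM in MYC-OE SETD2-KO, 5.22, 5.68 and 12.4 CPM in MYC-OE, 1.94, 0.842 and 2.19 CPM in SETD2-KO and 2.23, 2.62 and 1.77 CPM in WT (-2.93 ± 0.71, adjusted p = 0.178). In both genes the MYC-OE SETD2-KO libraries lay below the MYC-OE libraries. Wnt5a and Wnt4 had -2.87 ± 0.73 and -2.97 ± 0.78 (adjusted p = 0.202 and 0.217). MYC-OE SETD2-KO against MYC-OE called 6 of the 36 lower.

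Immune cell genes depended on the set. Macrophage and myeloid markers had 6 negative values of 25 at an unadjusted p under 0.05, none called, and a median of -1.12 with the set term, -2.45 by group, 0.17 inside set 2 and -2.36 inside set 3. C1qa, a complement subunit made by macrophages, had 13.1, 6.82 and 10.6 CPM in MYC-OE SETD2-KO, 19.9, 103 and 115 CPM in MYC-OE, 6.31, 4.36 and 19.5 CPM in SETD2-KO and 4.30, 3.77 and 4.27 CPM in WT (-2.57 ± 0.69, adjusted p = 0.22). MYC-OE 2 and 3 stood apart and MYC-OE 1 did not. The MHC class II genes, which present antigen, had 3 negative values of 10, a median of -2.04 and, inside sets 2 and 3, -0.21 and -3.71. H2-Ab1 had 60.5, 48.0 and 28.6 CPM in MYC-OE SETD2-KO, 95.9, 322 and 313 CPM in MYC-OE, 47.9, 47.0 and 116 CPM in SETD2-KO and 50.1, 52.8 and 39.7 CPM in WT (-2.14 ± 0.69, adjusted p = 0.285). Without MYC-OE 1 the medians of these lists were -2.34 and -3.99, and without MYC-OE SETD2-KO 3 they were 0.37 and -0.20.

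**Figure D4:**
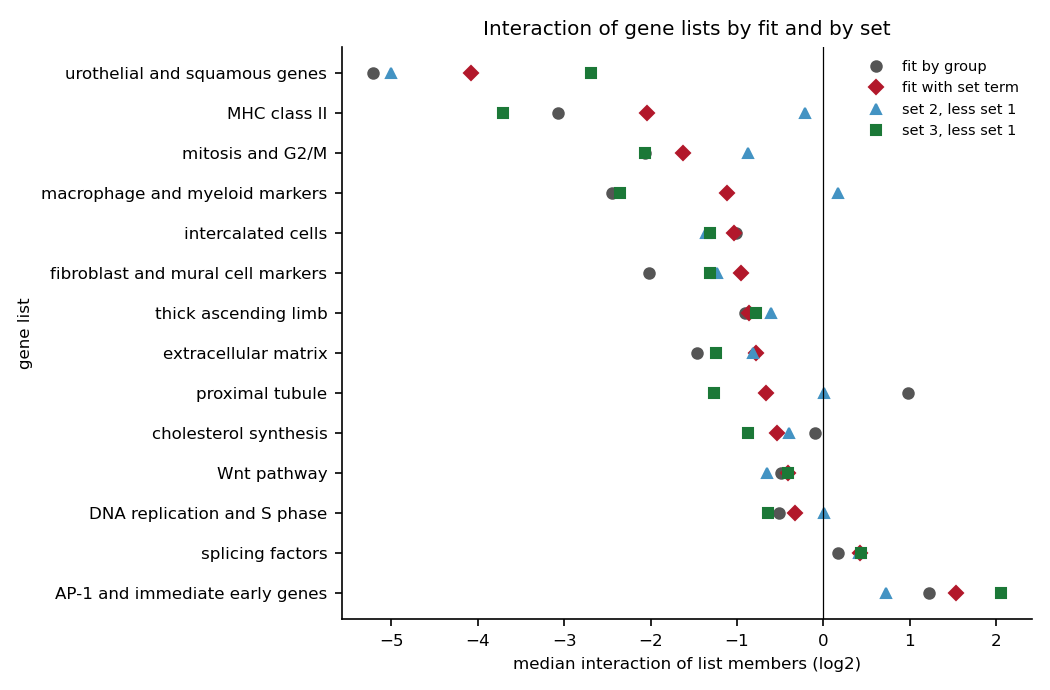
Median interaction (log2, x axis) of the tested members of 14 lists (y axis) in the fit by group, in the fit with the set term, and as the difference of MYC-OE SETD2-KO from MYC-OE inside set 2 or set 3 less that of SETD2-KO from WT in set 1. The DNA replication, macrophage and proximal tubule lists change sign between these values, and the other lists keep theirs. The proximal tubule list runs from 0.98 by group to -1.27 inside set 3.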

How the data were processed

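Per the labels' protocols, poly(A) RNA was selected, directional libraries were made and both ends were sequenced. The authors deposited 1 table of raw read counts for 44792 gene symbols. Per the submitters' processing notes, the builds were GRCm38 and mm10, and the tools HISAT2, StringTie, FastQC, MACS2 2.1.1, Trimmomatic 0.35 and cutadapt 1.9.1, with no role given. The counting program, its strand setting and its treatment of shared reads are not stated, so genes with near-identical copies, such as ribosomal proteins, are uncertain.

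Counts as deposited were tested with edgeR 4.0.16 in R 4.3.3 (TMM scaling, filterByExpr, quasi-likelihood F test, 17019 genes, Benjamini-Hochberg adjustment over all of them, called under 0.05), by group (8 residual degrees of freedom) and with the set term (6). TMM factors ran from 0.79 to 1.5, and the biological coefficient of variation was 0.58 by group and 0.27 with the set term. Log2 CPM uses a prior count of 2. Sets were cut at 100 and 10000 CPM of mitochondrial ribosomal RNA. Values inside set 2 or 3 are differences of mean log2 CPM, MYC-OE SETD2-KO minus MYC-OE in that set less SETD2-KO minus WT in set 1, with no test. Alternatives used DESeq2 1.42.0, limma 3.58.1, other scalings and filters, an Xist term and left-out libraries. The values inside sets and the fit without the Xist libraries were added after seeing the data.

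The members, the 48 gene lists and the tests were chosen with earlier results of these data known. Of 1386 list members 1330 were tested. The named genes are, for each fit and direction, the 8 called genes of largest interaction that averaged 1 log2 CPM or more, filled by lowest p, without LOC, Gm, Rik and pseudogene symbols, plus Setd2, Myc and up to 4 members of each described list with the lowest p. Promoters came from RefSeq (GRCm38.p6) and matched 11197 tested genes. Intervals and floors cover counting error only. Each library was taken as 1 mouse, per the design text.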

Additional observations from a re-analysis of the deposited data

Results flagged for a closer look

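In 18 genes the interaction passed the test with the set term (edgeR, adjusted p under 0.05). MYC-OE, the group without the floxed Setd2 allele, was the highest in 11 of the 12 negative genes and the lowest in all 6 positive genes. An effect of that allele or its segment, or of Cre, cannot be told apart from the interaction. With an Xist term added, 0 positive calls and 1 negative call were left. The negative values were -7.48 for Rpl29, -5.03 for Ly6d, -4.83 for Cyp7b1, -4.61 for Col1a1, -4.51 for Bcat1, -4.18 for Tnn, -3.42 for A4gnt, -3.31 for Slc4a1, -2.60 for Esr1, -2.47 for Fam107a, -2.36 for Rec8 and -2.25 for Cyp51 (log2). The positive values were 7.05 for Ifi44l, 6.20 for Gm8210, 5.25 for Gbp2b, 2.78 for Dusp1, 2.21 for Snhg11 and 1.30 for Pnn. In all 18 the value had the same sign from set 2 and from set 3, each less the difference of SETD2-KO from WT in set 1. Both values share that difference and come from the libraries that gave the calls, so their agreement is no further test. The deposited position of Bcat1 is on a scaffold and not on a chromosome.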

How the results depend on the processing

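By group, with 1 positive and 1 negative call, the counts were 0 and 1 with library totals, limma-voom or the replicate block and without the 3 Xist libraries, 0 and 0 with at least 10 counts in every library, 1 and 3 with an Xist term, 52 and 216 with DESeq2, 69 and 97 without set 3, and 6 and 12 with the set term. Leaving out 1 library gave 0 to 18 positive and 0 to 13 negative calls. With the set term, with 6 and 12, they were 4 and 21 with library totals, 272 and 489 with no filter on low counts, 180 and 225 with DESeq2, 11 and 12 with limma-voom, 69 and 97 without set 3, 0 and 1 with the Xist term, 95 and 164 without the Xist libraries, and 0 to 1740 and 1 to 2370 with 1 library left out. DESeq2 size factors gave 1 and 1 by group and 7 and 12 with the set term, and the causes of these shifts were not tested. Same-numbered libraries deviated together (r above 0.1) in 11 of 18 pairs, with r from -0.6 to 0.68. Pairs with different numbers were not compared, so this cannot decide whether the replicate numbers pair the libraries. With the replicate block the set term fit gave 0 positive and 1 negative call, Rpl29. The sign of the named genes turned only for Setd2 and Myc, neither of which was called. Setd2 turned to -0.23 by group with library totals, and without the Xist libraries to -0.03 by group and -0.10 with the set term. Myc turned to -0.61 by group and -0.30 with the set term without the Xist libraries, and to -0.11 with the set and Xist terms. MYC-OE SETD2-KO was sequenced to the lowest totals, 8889185 to 14314434 counts, which limits its low genes.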

Other observations

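Genes of glomerular and vascular cells, which lie outside the tubular epithelium, had positive median interactions inside set 2 that did not recur inside set 3. Over 19 podocyte genes the median interaction was 0.84 with the set term, 2.06 by group, 2.37 inside set 2 and -0.47 inside set 3, and 2 genes were positive at an unadjusted p under 0.05 with the set term and 9 by group. Over 22 endothelial genes the median was 0.51, with 0.93 inside set 2 and -0.06 inside set 3, where the median of all genes tested was -0.08. In 7 of the 22 every MYC-OE SETD2-KO library lay above every MYC-OE library. Kdr, a receptor for vascular endothelial growth factor, had 366, 178 and 26.9 CPM in MYC-OE SETD2-KO, 60.0, 23.4 and 21.0 CPM in MYC-OE, 131, 186 and 108 CPM in SETD2-KO and 93.2, 82.9 and 237 CPM in WT.

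Mitochondrially encoded messenger RNAs had a median interaction of 1.16 over 13 genes, with 2.37 by group, 2.26 inside set 2 and 0.15 inside set 3, while 58 nuclear genes of oxidative phosphorylation had a median of 0.02. The sets were cut on ribosomal RNA of the same genome. Inside set 2 that RNA was 975 CPM in MYC-OE 1 and 2909 and 2775 CPM in MYC-OE SETD2-KO 1 and 2. The list's value is therefore not independent of the measure that defined the sets. The 28 kidney genes with a known sex difference had a median of -1.20 with the set term and 0.68 by group. Their median level was 3.85, 7.59 and 3.50 log2 CPM in MYC-OE SETD2-KO 1, 2 and 3, where 1 and 3 had Xist, against 7.84, 6.23 and 6.01 in MYC-OE. It was 6.87, 7.01 and 6.29 in SETD2-KO 1, 2 and 3, where 3 had Xist, and 7.52, 7.55 and 7.09 in WT. SETD2-KO 3 thus lay above MYC-OE 2 and 3, which had Y transcripts.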
